A study of Rattus norvegicus with 6 samples.

Results

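The mitosis and spindle genes are the genes that a cell switches on late in the cell cycle to enter and complete division, and 49 of them were listed by gene symbol: G2/M cyclins and kinases, kinetochore and checkpoint genes, the chromosomal passenger complex, spindle motors, cytokinesis genes, the sister separation machinery and condensin. A row with one of these symbols was present for 43 of the 49, and all 43 passed the filter on low counts, among 7729 rows tested of 17048 rows with 16881 symbols. Ncaph, Anln, Ncapg, Cenpe, Ncapd2 and Spc24 had no row and were not analysed here. The members were listed by name and function, by a rule that uses no measured value, although earlier results of these data were known when the list was made.

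RNA came from wild-type rat neural stem/progenitor cells (NSPCs), prepared from embryonic Sprague-Dawley rats and kept for 24 h in a medium that maintains stemness. The cells lay on films of carbon nanotubes that had been oxidized to different degrees, which set the film's electrical conductivity. The High film was supraphysiological in conductivity, and the Medium and Low films were in the range of neural tissue. There were 2 libraries for each film. The comparison of the Low and Medium films with the High film, and of each pair of films, asks whether the transcripts of these cells differ between films. Oxidation differed along with conductivity, and the paper used another poly-D-lysine concentration on the Medium film to match laminin. These differences cannot be told apart from conductivity. No group was grown off the carbon films, so every value is relative to another film. The labels do not say that the 2 libraries of a film came from separate cultures, and p-values then measure only the spread between these libraries, which may be technical.

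In mitosis, cyclin B and CDK1 drive entry, condensin and topoisomerase II compact and untangle the chromosomes, and kinetochores attach them to spindle microtubules that motors such as KIF11 push apart. The spindle checkpoint holds the anaphase-promoting complex and its activator CDC20 in check until every chromosome is attached, after which securin and cyclin B are degraded, separase cuts cohesin and the central spindle places the cleavage furrow. Many of these genes are transcribed in G2 through CHR elements (cell cycle genes homology region) and CCAAT boxes in their promoters, and their transcripts peak when a cycling cell reaches G2 and mitosis.

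The letters of those 2 elements were looked up in RefSeq promoter sequences (build GRCr8, 250 bases before to 50 bases after each annotated start), which were matched by symbol for 44 of the 49 genes. The more common form of the CHR is TTTGAA, and it was searched on both strands. A less common form, searched in the same way, is TTCGAA, which reads alike on both strands. The letters of the CCAAT box were also searched on both strands. A CHR element was present in 31 of 44 members (70.5%) and in 21.0% of the 27457 genes with a promoter, and a CCAAT box was present in 33 members (75.0%) and in 39.6% of all. Both stood in the same window in 25 members (56.8%) and in 8.57% of all genes. Of the 41 CHR elements found in members, 21 began between 50 bases before the start and 50 bases after it. The DNA replication genes, a comparison list for S phase with 36 promoters, held a CHR element in 19.4% and a CCAAT box in 63.9%, and the letters TTCCCGC, a match to E2F sites, in 38.9% against 9.09% of the members and 4.71% of all genes. TTGGCGC, a further E2F-type string that can overlap a CCAAT box read on the other strand, was in 27.8% of the replication genes, 11.4% of the members and 2.57% of all genes. Shares over all genes are not shares over expressed genes. Among the 5979 of 7729 tested symbols that matched a promoter, a CHR element was in 13.3%, a CCAAT box in 39.7%, TTCCCGC in 8.98% and the other E2F-type string in 5.18%, so the share of TTCCCGC in members was like that in tested genes. Those matches cover 77.4% of the tested symbols, under the 80% set as a minimum, so the comparison is void as a check and is given as a description. A match of letters is a description and not a bound site, and binding was not measured.

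The 100 bases that end just before the start are shown for 8 members whose values are described later, with CHR letters and CCAAT boxes in capitals. They run 5′ to 3′ on the gene's strand, so a match on the other strand appears as its reverse complement, as for both elements of Top2a. Birc5, Cdc20, Cdk1, Top2a, Prc1 and Cks1b show a CHR element within these bases, with a CCAAT box upstream of it in the stretch in all except Birc5. The CCAAT box of Birc5 began 213 bases before the start, outside the stretch. Ccnb1 has CCAAT boxes without a CHR element, and Smc4 has CHR elements without a CCAAT box in the stretch.
Birc5: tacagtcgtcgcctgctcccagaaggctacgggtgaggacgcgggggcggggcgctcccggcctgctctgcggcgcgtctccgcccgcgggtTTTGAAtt
Cdc20: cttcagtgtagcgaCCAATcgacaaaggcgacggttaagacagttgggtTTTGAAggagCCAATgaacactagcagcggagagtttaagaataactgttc
Cdk1: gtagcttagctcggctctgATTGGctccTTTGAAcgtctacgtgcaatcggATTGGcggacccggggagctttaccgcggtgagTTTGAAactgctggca
Top2a: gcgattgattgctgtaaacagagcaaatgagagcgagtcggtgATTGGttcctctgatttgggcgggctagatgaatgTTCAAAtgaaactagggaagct
Prc1: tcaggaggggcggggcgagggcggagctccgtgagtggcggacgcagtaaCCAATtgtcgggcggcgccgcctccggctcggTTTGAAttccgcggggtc
Cks1b: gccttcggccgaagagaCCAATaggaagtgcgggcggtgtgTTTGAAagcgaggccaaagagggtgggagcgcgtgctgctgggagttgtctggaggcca
Ccnb1: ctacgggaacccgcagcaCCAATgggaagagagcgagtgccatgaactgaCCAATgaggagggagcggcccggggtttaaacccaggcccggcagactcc
Smc4: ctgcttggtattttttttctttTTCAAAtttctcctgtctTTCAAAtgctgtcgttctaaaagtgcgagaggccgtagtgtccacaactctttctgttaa
The positions were chr10:103572046-103572145 (plus strand) for Birc5, chr5:137255800-137255899 (minus) for Cdc20, chr20:19265193-19265292 (plus) for Cdk1, chr10:84473094-84473193 (minus) for Top2a, chr1:143659381-143659480 (plus) for Prc1, chr2:177135334-177135433 (minus) for Cks1b, chr2:33655226-33655325 (minus) for Ccnb1 and chr2:155550162-155550261 (plus) for Smc4. The first base of the CHR letters lay 8 bases before the start in Birc5, 51 in Cdc20, 18 in Prc1, 22 in Top2a and 59 in Cks1b. A CHR element was present in Birc5, Prc1 and Smc4, which had log2 fold changes of 1.72, −1.29 and 0.14 in Low and Medium against High. None of these genes passed the adjusted threshold in the edgeR fit of all libraries, and they are named for their values. Whether the element goes with the direction of a difference between films was not tested.

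**Figure D1:**
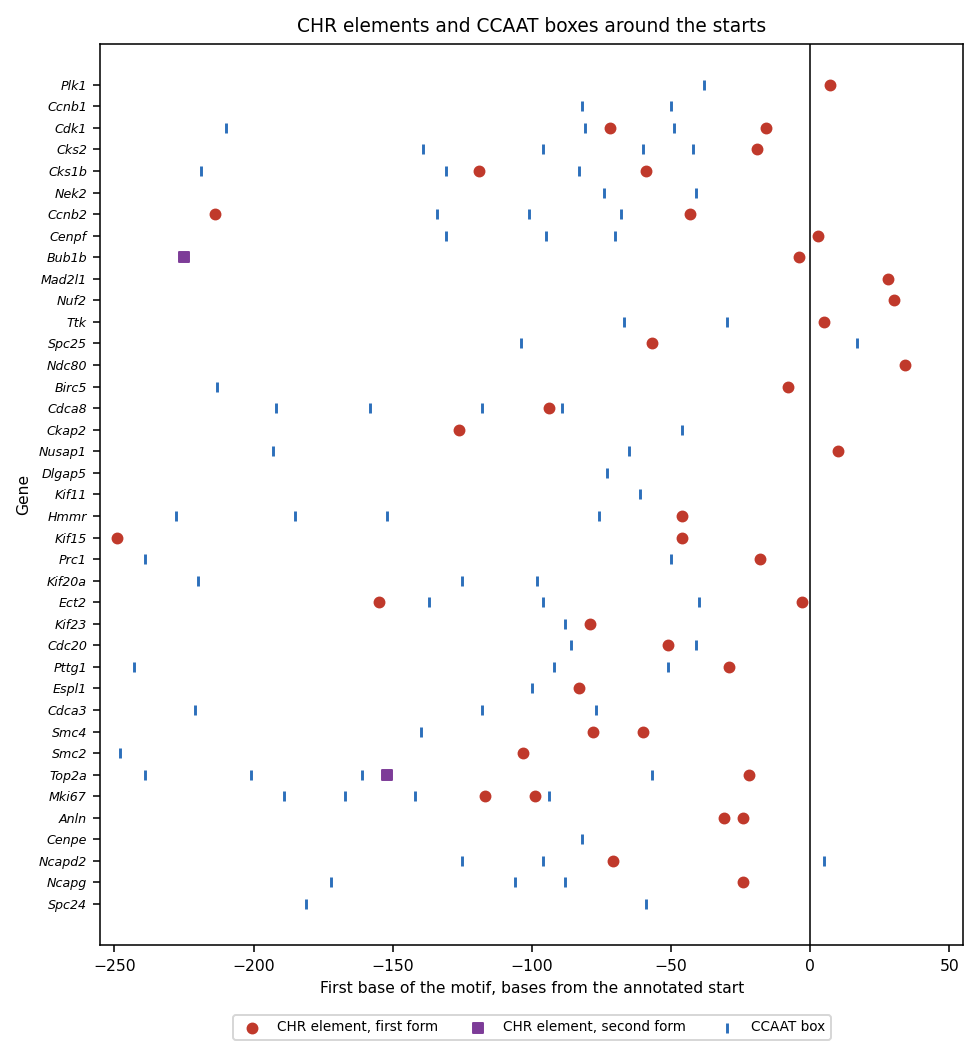
Position of each CHR element (red circles for the more common form, purple squares for the other) and CCAAT box (blue bars) relative to the annotated start, in bases, for the members with at least 1 match; each row is a gene. Of 41 CHR elements, 21 began within 50 bases on either side of the start, while CCAAT boxes lay mostly upstream of it.

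QuantSeq counts the 3′ end of each transcript, so a value is given as a CPM, the library's counts scaled to a common total with edgeR's TMM factors. Libraries held 5124863 to 6213676 counts. Ribosomal RNA took 26.1% and 38.4% of the counts in the High libraries and 7.16% to 13.0% in the other 4, and the TMM factors were lower in High (0.778 and 0.89) than elsewhere (1.04 to 1.14). Of 10 neural stem and progenitor markers, 9 had a row and 6 had a count, Sox2, Nes, Pax6, Vim, Fabp7 and Hes1, whereas Hes5, Msi1 and Prom1 were at 0 in every library. The summed level of this list was 2855 and 2564 CPM on High, 4505 and 4098 on Medium and 3605 and 4691 on Low. Vim carried most of this sum, at 2137 and 1972 CPM on High, 3083 and 2979 on Medium and 2545 and 3664 on Low. In Low and Medium against High, 4 of the 6 tested markers had a log2 fold change above 0 and 2 below. The means of Fabp7 and Hes1 were lower on Low (80.1 and 33.4 CPM) than on High (214 and 72.2 CPM). Microglial markers had a count for 2 of 6 and summed to 0 to 7.1 CPM, with Itgam, Cx3cr1, Csf1r and Tyrobp at 0. Astrocyte markers had a count for 2 of 5 and summed to 14.4 and 72.5 CPM on High, 68.0 and 27.3 on Medium and 7.5 and 53.0 on Low, with Aqp4, Aldh1l1 and Slc1a2 at 0. Neuronal markers had a count for 6 of 8 and summed to 69.1 and 30.9 CPM on High, 27.0 and 146 on Medium and 201 and 140 on Low, with Rbfox3 and Syt1 at 0. Oligodendrocyte lineage markers had a count for 6 of 7 and summed to 350 and 381 CPM on High, 559 and 594 on Medium and 835 and 649 on Low, with Sox10 at 0. Meningeal, vascular and fibroblast markers had a count for 4 of 9, with Pecam1, Cdh5, Pdgfrb, Dcn and Lum at 0, and summed to 399 CPM in Medium replicate 2 and to at most 35.6 CPM elsewhere. The ribosomal share and the sums of the stem cell and oligodendrocyte lists separate the High libraries from the other 4 as the main contrast does. The part they play in the members' values was not tested.

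The 43 members made up 0.300% to 0.548% of a library's counts. Their summed level was 3808 and 3856 CPM on High, 4795 and 4112 on Medium and 4834 and 4264 on Low, that is 3832 ± 34.0, 4454 ± 483 and 4549 ± 403 CPM (SD, n = 2). All 4 Low and Medium sums lay above both High sums, by a ratio of means of 1.17. The 10 members of highest mean level carried 54.8% of the sum, and without Birc5 alone the sums were 3659 and 3728 CPM on High, 4487 and 3378 on Medium and 4326 and 3976 on Low, which overlap. With the ribosomal rows removed before scaling the sums were 4628 and 4702 CPM in High against 5000 to 5898 in the other libraries, and on library totals alone they were 3389 and 2999 against 4257 to 5475. In bulk RNA, fewer dividing cells and less of each transcript per dividing cell cannot be told apart. The sum of the DNA replication list was 2715 and 1911 CPM on High, 3024 and 3190 on Medium and 2845 and 2861 on Low, which also places both High libraries lowest.

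**Figure D2:**
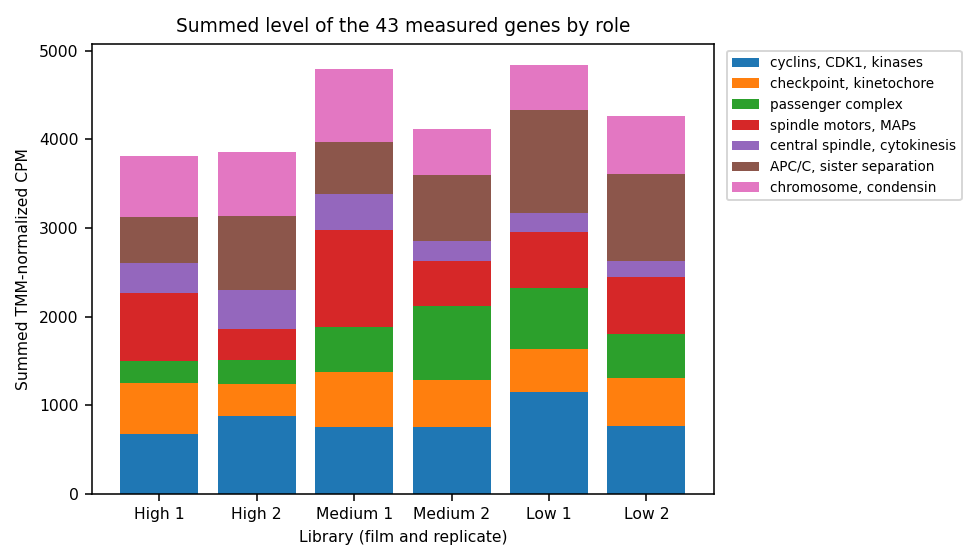
Summed TMM-normalized CPM of the 43 measured members in each library, stacked by role, with 2 libraries per film. The High libraries reach 3808 and 3856 and the others 4112 to 4834. The green band of the 3 listed chromosomal passenger complex genes is narrowest in High (257 and 273). Birc5 is the largest of the 3 in every library except High replicate 2, where Cdca8 is.

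Gene by gene, no member passed the threshold. The quasi-likelihood test of edgeR, its p-values adjusted by Benjamini-Hochberg over all 7729 rows, called 0 of 43 members in Low and Medium against High, where it called 10 rows (0.129%). At an unadjusted p under 0.05 it picked 2 members, Birc5 and Ccna2, beside 5.5% of all rows, and DESeq2 called 3, Birc5, Ccna2 and Aurkb, beside 4.85%. In Low against High edgeR called 0 members (0.0518% of rows), 3 members had an unadjusted p under 0.05 (4.27% of rows), namely Ccna2, Birc5 and Cdc20, and DESeq2 called the same 3 (3.88%). In Medium against High edgeR called 0 members (0.0129% of rows), 3 had an unadjusted p under 0.05 (4.04%), Birc5 and Ccna2 higher and Mad2l1 lower, and DESeq2 called these 3 (3.97%). In Low against Medium edgeR called 0 members and 0 rows (0%), Cdc20 and Mad2l1 had an unadjusted p under 0.05 (1.51% of rows), and DESeq2 called Mad2l1 alone (1.5%). Among 43 members, shares of this size amount to about 1 or 2 genes, so the members' counts lie near the background. The 3 contrasts with High share its 2 libraries and are not independent of one another.

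The median log2 fold change of the members was 0.04 in Low and Medium against High, beside −0.12 over all rows tested, with 23 members above 0 and 20 below. In Low against High it was 0.12 beside 0.02, in Medium against High −0.04 beside −0.06, and in Low against Medium 0.08 beside 0.07. With every library raised to 3 counts the first of these became −0.12 beside −0.17. The middle of the group was thus near 0 in each contrast, although its sum was higher in Low and Medium than in High.

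In 8 of 43 members (18.6%) each library from Low and Medium lay above both from High, beside 8.06% of all rows tested, and in 3 (6.98%) all 4 lay below, beside 10.1%. The 8 were Birc5, Cdc20, Cks1b, Ccna2, Ttk, Spc25, Dlgap5 and Aurkb, and the 3 were Prc1, Nek2 and Cdca3. The other 32 members overlapped between High and the other films. On library totals Ube2c joined the first set (9 members) and Nek2 left the second (2 members), and removing ribosomal rows left both sets as they were.

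**Figure D3:**
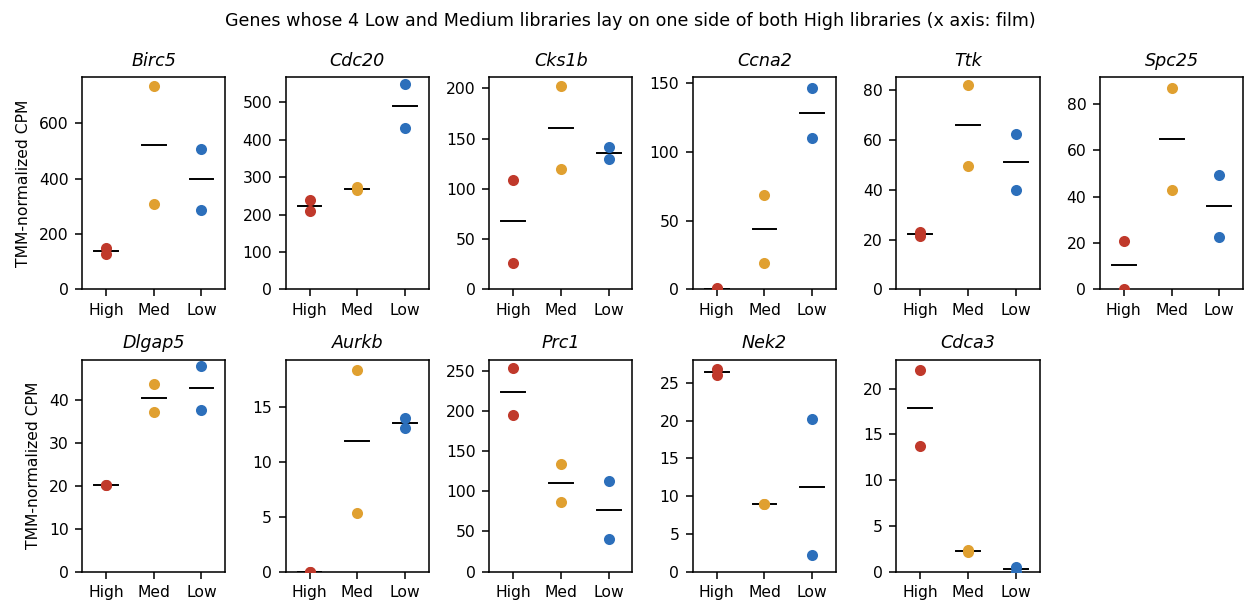
TMM-normalized CPM of the 11 members whose Low and Medium libraries (4) lay on one side of both High libraries; each point is a library, each bar the mean of 2, and every y axis starts at 0. Birc5 to Aurkb are lowest in High, with Aurkb at 0 there, and Prc1, Nek2 and Cdca3 are highest in High.

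The chromosomal passenger complex corrects wrong kinetochore attachments and later directs cytokinesis. Its 3 listed genes had a lower sum in both High libraries than in the other 4. They summed to 257 and 273 CPM on High, 503 and 837 on Medium and 687 and 501 on Low, a ratio of 2.39 between the Low and Medium mean and the High mean. The sum leaves out Incenp, a further subunit placed among the non-members, which lay the other way without overlap. Incenp was at 124 and 114 CPM on High, 19.1 and 75.0 on Medium and 43.9 and 70.0 on Low. Birc5 encodes survivin, the subunit that brings the complex to centromeres, and it was at 149 and 128 CPM on High, 308 and 734 on Medium and 508 and 288 on Low. Both High libraries were lowest and no film's values overlapped with High, while Medium and Low overlapped. The log2 fold change of Birc5 was 1.72 ± 0.45 (SE) in Low and Medium against High, 1.91 ± 0.49 in Medium and 1.52 ± 0.48 in Low, and the edgeR adjusted p was 0.468, 0.494 and 0.899. Its adjusted p in the first contrast ran from 0.0019 to 0.479 over 15 alternatives, of which 6 called it, among them the fits without Medium replicate 1 (1.97, adjusted p 0.0077) and without Low replicate 2 (1.89, adjusted p 0.0019). In Medium against High it was called without Low replicate 1 (1.91, adjusted p 0.0116), without Low replicate 2 and without Medium replicate 1, and in Low against High without Low replicate 2 (1.88, adjusted p 0.0295). Aurkb, the complex's kinase, had 0 and 0 counts on High, 108 and 33 on Medium and 91 and 84 on Low. Against a floor of 3 counts in each High library it was 19.2-fold higher in Low and Medium, 18.0-fold in Medium and 20.5-fold in Low. These folds depend on the floor and do not cover the spread between replicates. The fitted log2 fold change in Low and Medium against High was 9.17 ± 4.96, with an edgeR adjusted p of 0.801. Cdca8, borealin, was flatter, at 108 and 145 CPM on High, 177 and 97.2 on Medium and 165 and 198 on Low, with a log2 fold change of 0.32 ± 0.53 in Low and Medium against High. Both Low libraries lay above both High libraries, and Medium spanned them.

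Among the cyclins, CDK1 and the mitotic kinases, Ccna2 stood out. Cyclin A2 acts in S phase and at mitotic entry, and its counts were 0 and 6 on High, 401 and 116 on Medium and 765 and 879 on Low. The High libraries were near 0 and the order High, Medium, Low held without overlap. From pooled counts it was 65.4-fold higher in Medium than in High (95% exact interval 29.8 to 179) and 193-fold higher in Low (88.4 to 526), intervals that cover counting error only. The fitted log2 fold change in Low and Medium against High was 6.69 ± 2.02, with an edgeR adjusted p of 0.616, and DESeq2 gave an adjusted p of 9.2e-06. Ccnb1, the cyclin B1 that pairs with CDK1 at mitotic entry, did not follow it. Its counts were 610 and 841 on High, 2 and 882 on Medium and 1823 and 532 on Low, so Medium replicate 1 was near 0 while its partner was at the level of the High libraries. Leaving out Medium replicate 2, edgeR called Ccna2 (log2 fold change 7.01, adjusted p 0.0146) and Ccnb1 (−4.36, adjusted p 0.0015) in Low and Medium against High, the latter on the 2 counts that remained for Medium. Both were also called in Medium against High in that fit, and Ccnb1 in Low against Medium. Cdk1 itself was at 134 and 117 CPM on High, 44.1 and 124 on Medium and 267 and 94.3 on Low, which overlap in all 3 films, with a log2 fold change of −0.02 ± 0.68 in Low and Medium against High. Plk1, a kinase of centrosome maturation and spindle assembly, was at 84.3 and 179 CPM on High, 231 and 155 on Medium and 139 and 84.4 on Low, and its log2 fold change was 0.16 ± 0.57. Cks2, which binds CDK1 and helps it reach its substrates, was at 84.5 and 208 CPM on High, 143 and 112 on Medium and 65.9 and 149.9 on Low, and High replicate 2 was the highest library.

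The other members of that role had no common direction. Cks1b, a relative of Cks2 that also serves the SCF ubiquitin ligase, was at 109 and 26.8 CPM on High, 202 and 119.9 on Medium and 142 and 129 on Low, with a log2 fold change of 1.13 ± 0.74 and an edgeR adjusted p of 0.801. Nek2, a kinase of centrosome separation, was at 26.1 and 26.8 CPM on High, 8.89 and 8.98 on Medium and 20.2 and 2.17 on Low, so both High libraries lay above the rest, though Low replicate 1 came close. Melk was among the flattest members, with a ratio of 1.74 between the highest and the lowest library. Aurka, the centrosomal aurora kinase, ran from 12.5 to 77.2 CPM with both extremes in the Low film. Ccnb2 ran from 0.17 to 56.0 CPM, and its 2 High libraries differed more than the film means. In this role 3 of 10 members had a log2 fold change above 0 in Low and Medium against High, and the median was −0.22. Cks1b, Nek2, Melk, Aurka, Ccnb2, Ttk, Spc25, Dlgap5, Cdca3, Ndc80, Bub1, Kif11, Hmmr, Kif15 and Racgap1 fall outside the rule for named genes and are given to account for every member.

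Within the spindle checkpoint and the kinetochore, Mad2l1 and the NDC80 complex varied from library to library. MAD2 inhibits CDC20 when a kinetochore is unattached, and the counts of Mad2l1 were 632 and 1 on High, 3 and 0 on Medium and 646 and 461 on Low. Medium was near 0 in both libraries, Low was high in both, and High held 1 library of each kind. From pooled counts Mad2l1 was 342-fold higher in Low than in Medium (95% exact interval 117 to 1662), and the fitted log2 fold change was 8.27 ± 2.96 with an edgeR adjusted p of 1.0. The log2 fold change of Medium against High was −7.88, and it became 0.10 without High replicate 1 and −8.88 without High replicate 2, where edgeR called it (adjusted p 0.0381). Ndc80 and Nuf2 encode the 2 subunits whose globular heads hold microtubules and whose proteins work as a pair, and the zeros of their transcripts did not coincide. Ndc80 had 510 and 0 counts on High, 188 and 44 on Medium and 0 and 199 on Low. Nuf2 had 0 and 238 counts on High, 819 and 54 on Medium and 594 and 0 on Low. In High and in Low, the library without Ndc80 held Nuf2 and the library without Nuf2 held Ndc80, while both were present in Medium. This was noticed after the values were seen and was not tested.

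Cenpf, a large kinetochore protein that accumulates in G2, was at 227 and 120.0 CPM on High, 62.5 and 274 on Medium and 149 and 209 on Low. Its films overlapped throughout, and its log2 fold change in Low and Medium against High was 0.00 ± 0.62. Bub1b, the BUBR1 subunit of the checkpoint complex, was at 57.4 and 85.0 CPM on High, 244 and 30.5 on Medium and 56.7 and 66.7 on Low, where Medium replicate 1 alone lay above the rest. Ttk, the MPS1 kinase that starts checkpoint signalling, was at 23.0 and 21.4 CPM on High, 49.6 and 81.8 on Medium and 62.0 and 39.9 on Low. Both High libraries of Ttk lay below the other 4, with a log2 fold change of 1.38 ± 1.41 and an edgeR adjusted p of 0.947. Spc25, a further subunit of the NDC80 complex, had 0 and 88 counts on High, 510 and 263 on Medium and 156 and 295 on Low, so its lowest Low library lay just above its higher High library. Bub1 had 0 counts in Medium replicate 1 and 163 to 538 elsewhere. Of the 8 measured members of this role 5 had a log2 fold change above 0 in Low and Medium against High, with a median of 0.18.

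The spindle motors and microtubule-associated proteins had 6 of 8 members above 0 in the same contrast and a median of 0.62, but their sums overlapped, at 765 and 350 CPM on High, 1100 and 499.9 on Medium and 631 and 634 on Low. Ckap2, which promotes microtubule growth at the spindle, was at 358 and 113 CPM on High, 369 and 101 on Medium and 355 and 242 on Low. Each film held 1 library near the top of this range and 1 lower library. Nusap1, which bundles microtubules near chromosomes, was at 189 and 85.3 CPM on High, 36.1 and 129 on Medium and 84.7 and 194 on Low, and its highest libraries were High replicate 1 and Low replicate 2. Tpx2, which activates aurora A and nucleates spindle microtubules, was at 34.7 and 77.0 CPM on High, 298 and 99.95 on Medium and 47.6 and 67.4 on Low. Both Medium libraries lay above the other 4, with a log2 fold change of 1.83 ± 0.90 in Medium against High and an edgeR adjusted p of 0.908. Kif2c, a depolymerizing motor at centromeres, had 461 and 0 counts on High, 1725 and 444 on Medium and 74 and 160 on Low. Its value in High rested on 1 library, and without it, High being at 0, edgeR called Kif2c in Low and Medium against High (adjusted p 0.0253) and in Medium against High. Dlgap5, which stabilizes kinetochore fibres, was at 20.1 and 20.2 CPM on High, 43.6 and 37.1 on Medium and 47.9 and 37.6 on Low, with a log2 fold change of 1.04 ± 1.75. Its replicates were close on every film and both High libraries lay below the other 4. Kif11, the motor that separates the poles, was at 15.8 and 17.1 CPM on High, 54.9 and 40.2 on Medium and 12.6 and 65.4 on Low, where Low replicate 1 was the lowest of all. Hmmr ran from 1.84 to 70.3 CPM, both in Low, and Kif15 was at 0 in 3 libraries and at most 8.17 CPM elsewhere.

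Of the 5 measured central spindle and cytokinesis genes, 1 had a log2 fold change above 0 in Low and Medium against High, and 2 each in Low against High and in Medium against High. The median in the first contrast was −0.98, none of the 5 was called by edgeR or DESeq2 or had an unadjusted p under 0.05, and 45.9% of all rows tested were above 0 there. Their sums were 337 and 439 CPM on High, 410 and 235 on Medium and 209 and 179 on Low, so Low lay below High and Medium overlapped with it. Prc1, which crosslinks the antiparallel microtubules of the central spindle, was at 194 and 253 CPM on High, 134 and 86.1 on Medium and 113 and 40.3 on Low. Both High libraries were above the other 4, and the log2 fold change was −1.29 ± 0.59 in Low and Medium against High, −1.55 ± 0.72 in Low and −1.02 ± 0.72 in Medium, with edgeR adjusted p of 0.801, 0.899 and 0.908. Prc1 was not called by any of the 15 alternatives to the first contrast, where its adjusted p ran from 0.166 to 1.0. Kif20a, the motor that carries the passenger complex to the midzone, was at 41.6 and 72.0 CPM on High, 114 and 84.8 on Medium and 22.1 and 113 on Low, and its Low libraries were the lowest and close to the highest of the 6. Ect2, the RhoA activator of the furrow, was at 63.8 and 92.4 CPM on High, 162 and 29.1 on Medium and 51.5 and 5.52 on Low, where Medium replicate 1 was highest and Low replicate 2 lowest. Kif23, a motor of the centralspindlin complex, had 163 and 93 counts on High, 0 and 215 on Medium and 156 and 0 on Low. Racgap1, its partner, had 17 counts in High replicate 1, 115 in Low replicate 2 and 0 in the other 4 libraries. The centralspindlin pair was thus too sparse to order the films.

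The anaphase-promoting complex and sister separation genes summed to 517 and 834 CPM on High, 583 and 744 on Medium and 1168 and 987 on Low, so both Low libraries lay above the rest. Cdc20, the activator that turns the complex on in metaphase, was at 238 and 210.2 CPM on High, 265 and 273 on Medium and 549 and 433 on Low. Its replicates were close and the Low libraries lay above Medium and High, with Medium just above High. The log2 fold change of Cdc20 was 1.13 ± 0.36 in Low against High, 0.87 ± 0.36 in Low against Medium and 0.26 ± 0.35 in Medium against High, with edgeR adjusted p of 0.899, 1.0 and 1.0. DESeq2 gave 0.0124 for Low against High, and no other of the 16 alternatives called it. Ube2c, the ubiquitin-conjugating enzyme of the complex, was at 218 and 298 CPM on High, 223 and 272 on Medium and 384 and 294 on Low, with a log2 fold change of 0.17 ± 0.35 in Low and Medium against High. It was one of the flattest members, with a ratio of 1.76 between its highest and lowest library. Pttg1, securin, was at 39.8 and 241 CPM on High, 90.9 and 185 on Medium and 214 and 222 on Low, and High replicate 1 stood below the rest. Espl1, separase, which securin holds inactive, was at 7.59 and 63.0 CPM on High, 1.71 and 12.4 on Medium and 20.9 and 38.1 on Low, so its High libraries spanned all the others except Medium replicate 1. Cdca3, an adaptor for mitotic entry, had 67 and 93 counts on High, 14 and 13 on Medium and 0 and 3 on Low. From pooled counts it was 75.8-fold higher in High than in Low (95% exact interval 25.5 to 372), while its fitted log2 fold change in Low and Medium against High was −4.51 ± 3.19 with an edgeR adjusted p of 0.813.

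The last role holds the chromosome surface, topoisomerase and condensin genes, of which 4 of 7 were measured. Smc4, the shared condensin ATPase, was at 339.9 and 285 CPM on High, 361 and 237 on Medium and 399 and 393 on Low, and it was the flattest member with a ratio of 1.68 between the extremes. Its partner Smc2 was at 144 and 259 CPM on High, 174 and 126 on Medium and 97.8 and 155 on Low, with a log2 fold change of −0.55 ± 0.50 in Low and Medium against High. Top2a, topoisomerase II alpha, which untangles sister chromatids, was at 125 and 117 CPM on High, 171 and 39.7 on Medium and 0.289 and 24.4 on Low. Both Low libraries lay below the rest, with a log2 fold change of −3.29 ± 1.66 in Low against High and an edgeR adjusted p of 0.899. Without Low replicate 2, where the remaining Low library had 2 counts, edgeR called Top2a lower in Low and Medium than in High (−4.40, adjusted p 0.0326), in Low than in High (adjusted p 0.0153) and in Low than in Medium (adjusted p 0.038). Mki67, the Ki-67 protein that coats mitotic chromosomes and serves as a marker of cycling cells, was at 76.9 and 62.5 CPM on High, 120.5 and 109 on Medium and 6.92 and 82.6 on Low. Medium lay above High in both libraries, Low held the lowest library of all, and the log2 fold change in Low and Medium against High was 0.04 ± 1.06.

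**Figure D4:**
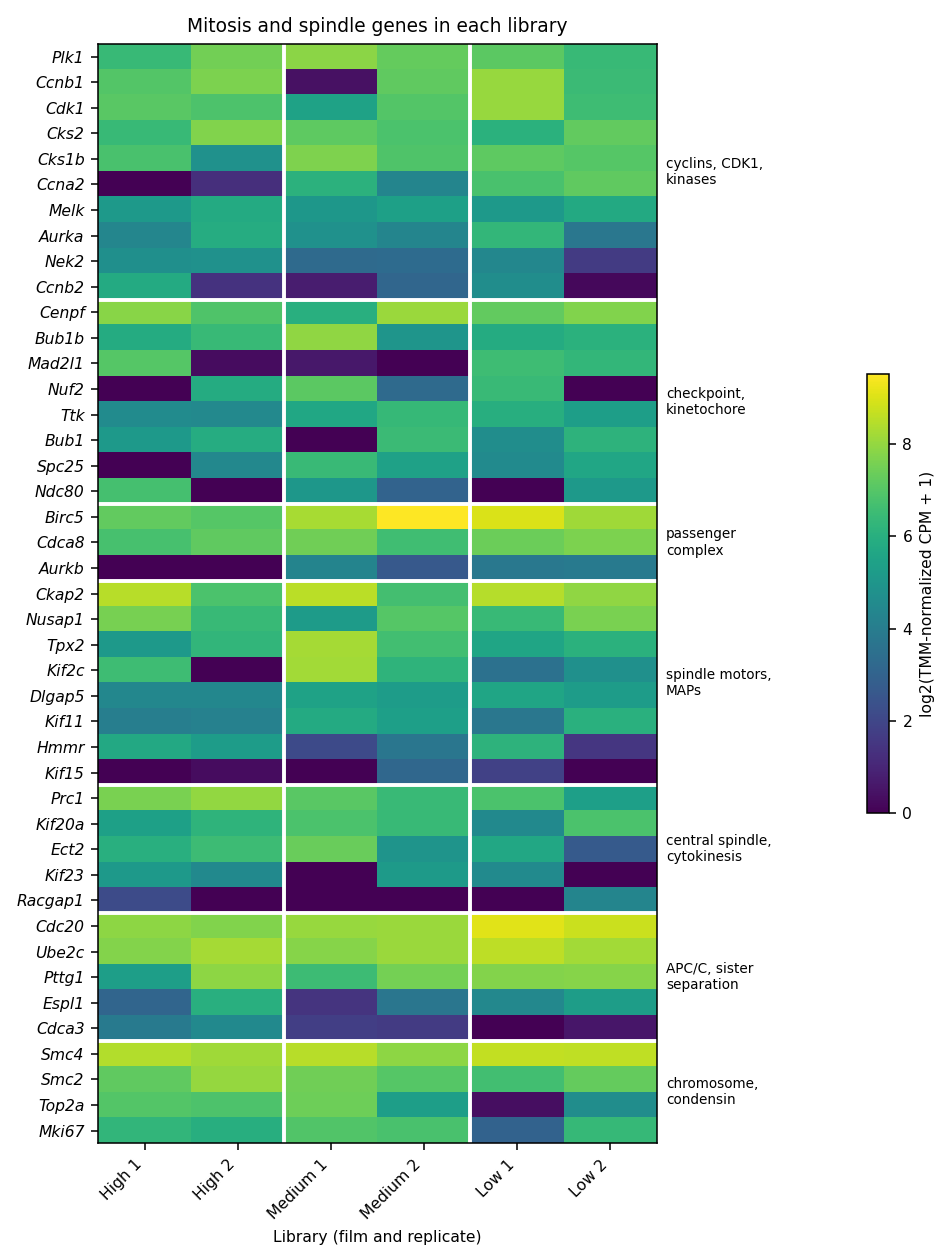
log2(TMM-normalized CPM + 1) of the 43 measured members (rows, by role and then by mean level) in the 6 libraries (columns, by film). Birc5, Cdc20, Ube2c and Smc4 are bright in every library, Ccna2 and Aurkb are dark in High alone, and dark single cells such as Ccnb1 in Medium 1 or Ndc80 in High 2 mark libraries with almost no count for a gene that the partner library holds.

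Replicate error set the limit of these comparisons. A member had 0 counts in 1 library and at least 50 in the other library of the film in 4 cases in High (9.30% of members, beside 14.4% of rows tested), 3 in Medium (6.98% beside 23.4%) and 4 in Low (9.30% beside 14.9%). The median size of the log2 ratio between replicates was 0.72 in High, 1.02 in Medium and 1.13 in Low for members, and 1.03, 1.60 and 1.06 for all rows tested. From 2 to 5 members of 43 were at 0 in a library (4.65% to 11.6%), beside 7.83% to 33.4% of the rows tested. The median level in a library was 57.4 to 72.5 CPM for members and 25.5 to 38.2 CPM for rows tested. Zeros were thus no more frequent in members than in all rows tested, which were lower in level. Pairs such as 510 and 0 counts of Ndc80 on the High film are far outside counting error.

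**Figure D5:**
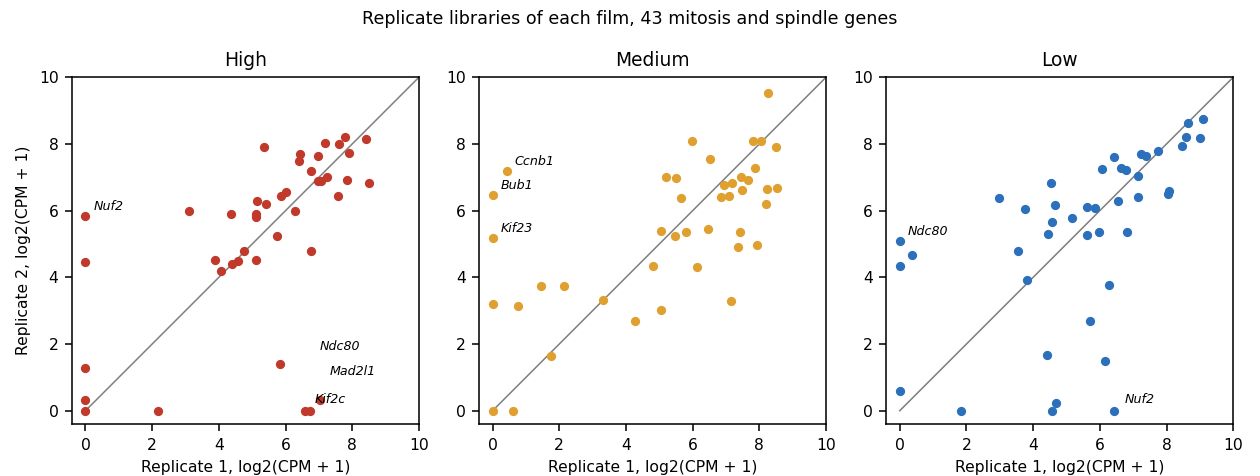
Replicate 2 against replicate 1 for the 43 measured members on each film, as log2(TMM-normalized CPM + 1); the line marks equal values and members more than 5 apart are named. Most members lie within a few units of the line, while Nuf2, Mad2l1, Ndc80 and Kif2c in High, Ccnb1, Bub1 and Kif23 in Medium and Ndc80 and Nuf2 in Low lie on or near an axis.

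Genes that control or share these functions were read from 5 further lists of non-members. Of the 14 genes for mitotic entry control and transcription, 12 had a row, 9 were tested and 1 passed the test in Low and Medium against High. In Low against High and in Medium against High edgeR called 0 of these 9, and DESeq2 called 1 in each. Cdkn1a, the CDK inhibitor p21, which arrests the cycle, was at 1601 and 1426 CPM on High, 444 and 499 on Medium and 512 and 679 on Low. All libraries from Low and Medium lay below both from High, with a log2 fold change of −1.51 ± 0.22 and an edgeR adjusted p of 0.0399, and 14 of 15 alternatives called it, all except scaling by library totals alone (adjusted p 0.156). Foxm1, the forkhead factor of G2/M transcription, had 71 and 99 counts on High, 0 and 154 on Medium and 0 and 290 on Low, and its log2 fold change was −0.13 ± 3.14. Mybl2, which joins the MuvB complex at CHR elements, had 290 and 0 counts on High, 1 and 104 on Medium and 152 and 232 on Low, with −0.88 ± 2.72. Lin54, the MuvB subunit that binds the CHR, had 281 and 165 counts on High, 10 and 153 on Medium and 0 and 28 on Low, with −3.11 ± 2.57. None of these 3 factors was called, and their counts were near the floor in at least 1 library each.

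Of 22 further kinetochore and checkpoint genes 14 were tested and 0 passed edgeR, with 1 at an unadjusted p under 0.05 and 1 called by DESeq2. That gene was Cenpw, a subunit of the inner kinetochore, with 39 and 1 counts on High, 1931 and 310 on Medium and 927 and 619 on Low, a log2 fold change of 5.17 ± 1.47 and an edgeR adjusted p of 0.531. Zwint, an outer kinetochore linker, was at 190 and 457 CPM on High, 91.9 and 168 on Medium and 266 and 286 on Low, with −0.77 ± 0.45. Of 21 further spindle and cytokinesis genes 15 were tested and 0 passed, with 0 at an unadjusted p under 0.05 and 0 by DESeq2, and the smallest p values belonged to Tubb4b, a tubulin (−0.42 ± 0.28), and Numa1, a pole-focusing protein (0.56 ± 0.44). Of 24 genes of the anaphase-promoting complex, cohesin and condensin 20 were tested and 0 passed, again with 0 at an unadjusted p under 0.05 and 0 by DESeq2. The smallest p values there were those of Smc3, a cohesin subunit (−1.10 ± 0.57), and Anapc5 (0.69 ± 0.41). Of 42 DNA replication genes 38 were tested and 0 passed edgeR, with 2 at an unadjusted p under 0.05 and 2 by DESeq2. Pold1, the catalytic subunit of polymerase delta, had 0 and 0 counts on High, 373 and 230 on Medium and 365 and 86 on Low. Rpa2, a subunit of the single-strand binding protein, was at 46.8 and 5.23 CPM on High, 204 and 148 on Medium and 116 and 81.9 on Low, with 2.34 ± 1.0. Pold1 and Rpa2 were lowest in both High libraries, but they were picked for the smallest p in this contrast. Of the 38 tested replication genes 19 had a log2 fold change above 0 and 19 below, and the median was −0.01.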

How the data were processed

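What the authors deposited are whole-number read counts per gene, 1 table per library, from QuantSeq 3′ libraries. Per the submitters' processing notes the tools were Bowtie2 and bedtools and the build rn6, and reads with multiple alignments were counted, so near-identical genes share reads. No strand setting or removal of duplicates is stated, and the counts carry no molecular identifiers. No column of other samples was present (0 columns).

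Counts were analysed with R 4.3.3, edgeR 4.0.16, limma 3.58.1 and DESeq2 1.42.0. Rows were filtered with filterByExpr, scaled by TMM, and edgeR's quasi-likelihood F test was run in 1 fit of the 3 film means over all 6 libraries, with Benjamini-Hochberg adjustment over all 7729 rows and a threshold of 0.05. A fitted log2 fold change is given ± an approximate standard error (SE), its size divided by the square root of the test's F. Where a film is at or near 0 counts, this error is only a rough guide. The common dispersion was 2.04. An exact permutation test of a single gene could not go below p = 0.133 with 4 libraries against 2, or 0.333 with 2 against 2, and was not used. Folds against a film with 0 counts use a floor of 3 counts per library, and folds against a film with a few counts carry exact 95% intervals for the ratio of pooled counts, which cover counting error only. The fit was tested on simulated counts, where it recovered few of the changed genes. False calls outnumbered the recovered genes at the smaller fold tried and were similar in number at the larger fold. A lack of calls therefore says little and single calls are uncertain.

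Values in every library are printed for each member with an unadjusted p under 0.05 in any of the 4 contrasts, for up to 4 members of highest mean CPM in each of the 7 roles, and for members at 0 in both libraries of one film with over 10 counts in both of another. Of the further lists, genes past the threshold, the 2 of smallest p in each list, and Cdkn1a, Foxm1 and Mybl2 are named. Incenp is named as well, as a passenger complex gene outside the members. The members, roles, lists and tests were chosen with earlier results of these data known. A planned description of protein motifs was not run, since no protein sequences were used here.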

Additional observations from a re-analysis of the deposited data

How the results depend on the processing

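With 2 libraries per film and a common dispersion of 2.04, a change in 1 member has to be large and even between replicates to be called, and most uncalled members carry standard errors that allow sizeable changes in either direction. The depth of 5124863 to 6213676 counts per library gave the members a summed share of 0.300% to 0.548%, and the spread between replicates was wider than counting error. Scaling by library totals raised the median log2 fold change of all rows by 0.38 in Low and Medium against High, 0.40 in Low against High and 0.35 in Medium against High, and the members are to be read against that shift. Over the 28 named members, all 4 contrasts and all alternatives there were 1763 values, of which 33 were called. There were 547 values in Low and Medium against High, or in another contrast with an unadjusted p under 0.05. Of these, 477 kept their side of the threshold and their sign, 41 kept the side with the other sign, 28 became called and 1 was counted as reversed. That was Mad2l1 in Medium against High without High replicate 1 (0.10, in a range of −11.51 to 0.10 when single libraries were left out). It then sets 1 count on High against 3 and 0 on Medium, so its direction is not measured. Causes of these shifts were not tested.

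In Low and Medium against High (10 rows called), the count was 68 with no filter, 56 with a mean count of at least 10, 375 with DESeq2, 23 with limma-voom, and 34 to 242 without single libraries. Members called were 1 with no filter and 1 with the mean count filter (Birc5 in both), 3 with DESeq2 and 0 to 2 without single libraries. The members' median was 0.42 on library totals, −0.12 with every library raised to 3 counts and −0.093 to 0.41 without single libraries. In Low against High (4 rows called), the count was 0 on library totals, 2 without ribosomal rows, 34 with no filter, 30 with the mean count filter, 300 with DESeq2, 16 with limma-voom, 0 with the libraries of the 2 groups only and 19 to 65 without single libraries. Members called were 3 with DESeq2 and 0 to 2 without single libraries, and their median was 0.55 on library totals and −0.22 to 0.40 without single libraries. In Medium against High (1 row called), the count was 0 on library totals, 48 with no filter, 40 with the mean count filter, 307 with DESeq2, 14 with limma-voom, 0 with 2 groups only and 11 to 275 without single libraries. Members called were 1 with no filter, 1 with the mean count filter, 3 with DESeq2 and 1 to 2 without single libraries, and their median was 0.33 on library totals and −0.084 to 0.23 without single libraries. In Low against Medium (0 rows called), the count was 5 with no filter, 116 with DESeq2 and 0 to 194 without single libraries. There 1 member was called with DESeq2 and 0 to 1 without single libraries, and the median was −0.19 with limma-voom, −0.073 with 2 groups only, −0.20 with every library raised to 3 counts and 0.00 to 0.18 without single libraries. A fit that leaves out a library keeps 1 library of that film, which is assumed to vary like the others. The count of calls rose in most such fits, and the members so called were Birc5, Ccna2, Ccnb1, Kif2c, Mad2l1 and Top2a, each named above with the library left out.

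The mean summed CPM of members was 3194 in High on library totals and 4665 without ribosomal rows, 5339 in Medium without ribosomal rows, and 5033 in Low on library totals and 5551 without ribosomal rows. Without Birc5 it was 3694 in High and 3933 in Medium. The counts of members on one side of both High libraries, recomputed under these scalings by a choice made after seeing the data, were 9 and 8 above and 2 and 3 below.

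The replicate numbers were shared across films. Deviations of same-numbered libraries from their film means correlated at 0.0066, 0.0034 and 0.0073 across rows. With so wide a spread between replicates, low correlations cannot show whether same-numbered libraries were prepared together. With a replicate block, 57 rows and 1 member were called in Low and Medium against High, 30 rows and 0 members in Low against High and 39 rows and 1 member in Medium against High, the member being Birc5, and the members' median was −0.13, 0.35 and, in Medium against High, within the spread of the main value.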
